A study of Rattus norvegicus with 20 samples.

Results

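The 8 genes described here encode glucose and hexose transporters: the facilitative carriers Slc2a1, Slc2a2, Slc2a4, Slc2a5 and Slc2a9 and the sodium-coupled carriers Slc5a1, Slc5a2 and Slc5a10. They were taken by gene symbol from the 30560 genes of the deposited expression table, and each symbol matched 1 row. The libraries are of poly-A RNA from left ventricle and kidney cortex of 10 male rats, which the series calls hypertensive and whose strain is not named in the labels; all carry the genotype label WT. Every animal received a blood pressure telemeter at 8 weeks of age and then ate a diet with 4% NaCl for 3 weeks, so no group on a normal diet enters any comparison. Over those 3 weeks a subcutaneous minipump gave 5 animals (RB030 to RB034) vehicle and 5 animals (RB035 to RB039) at most 1.3 µg/kg of Maresin 1 (MaR1) a day; MaR1 is a lipid mediator derived from docosahexaenoic acid. Each animal gave 1 kidney and 1 heart library, which makes 4 groups of 5 separate animals, and 19383232 to 30342034 fragments were assigned to genes per library.

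Facilitative carriers of the GLUT family, encoded by Slc2a genes, let hexoses cross a membrane down their gradient, whereas the SGLT family, encoded by Slc5a genes, couples sugar entry to sodium and can move it uphill. In the proximal tubule, filtered glucose enters the cell through SGLT2 (Slc5a2) in the first segments and SGLT1 (Slc5a1) in the last, and it leaves toward the blood through GLUT2 (Slc2a2) and GLUT1 (Slc2a1). Heart muscle takes up glucose through the insulin-responsive GLUT4 (Slc2a4), which moves from inner vesicles to the surface, and through GLUT1.

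The organ labels matched the contents of the libraries. Markers of heart muscle cells (9 genes) summed to 16451 to 22452 FPKM in hearts and to 0.465 to 1.51 FPKM in kidneys, and 13 markers of the early proximal tubule summed to 3461 to 6058 FPKM in kidneys and 6.52 to 23.7 FPKM in hearts. FPKM is a fragment count scaled by gene length and by a size given to each library. Levels of different genes in the same library can therefore be set side by side. Some kidney libraries stood apart. RB037 and RB038 had the lowest mean log2 level of the early-tubule markers, RB030 and RB039 the lowest of the markers of the last proximal segment, and RB039 held 625 FPKM of 8 adipocyte markers where the other kidneys held 11.4 to 75.5 FPKM. Urothelial markers (8 genes) summed to 4.35 FPKM in RB034, 16.2 FPKM in RB036, 32.4 FPKM in RB038 and 88.5 FPKM in RB039, and to at most 0.641 FPKM in the other kidneys. In such bulk samples, fewer cells of a type and less RNA per cell cannot be told apart.

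The comparison of kidney cortex with left ventricle in vehicle animals showed where each carrier was expressed. Kidney cortex held 7 of the 8 transcripts at a higher level than the heart, and Slc2a4 was the exception. In the kidney the order of mean levels was Slc5a2 at 149 ± 13.9 FPKM, then Slc5a10 at 40.8 ± 12.6, Slc2a2 at 35.6 ± 4.87, Slc2a5 at 15.1 ± 6.17, Slc2a1 at 12.4 ± 2.01, Slc5a1 at 10.97 ± 2.81, Slc2a9 at 5.88 ± 0.880 and Slc2a4 at 0.926 ± 0.143 FPKM (mean ± SD, n = 5). Slc5a2 stood above every other member in each vehicle kidney. Its neighbours in the order, Slc5a10 and Slc2a2, overlapped in range, and so did Slc2a5, Slc2a1 and Slc5a1. In the vehicle heart the order was Slc2a4 at 116.9 ± 28.1 FPKM, Slc2a1 at 8.76 ± 0.737, Slc2a9 at 1.92 ± 0.504, Slc2a5 at 0.777 ± 0.314 and Slc5a2 at 0.221 ± 0.0496 FPKM. None of these neighbours overlapped in range. The remaining carriers, Slc2a2, Slc5a1 and Slc5a10, were at or near 0 in all 10 hearts, with at most 18, 4 and 14 fragments.

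limma called all 8 members between the organs at an adjusted p of 0.05, 7 higher in the kidney and 1 lower, where 77% of the 12978 genes tested were called in either direction, with 40% of all tested genes called higher in the kidney and 37% lower. The share of called members is read against that high background. The log2 difference, kidney minus heart on the scale of log2(FPKM + 0.5), was 7.69 ± 0.08 for Slc5a2 (SE; limma, adjusted p = 1.16e-14), 6.13 ± 0.22 for Slc5a10 (adjusted p = 1.35e-10), 6.12 ± 0.09 for Slc2a2 (adjusted p = 1.07e-13) and 4.41 ± 0.16 for Slc5a1 (adjusted p = 1.35e-10). These 4 sizes depend on the 0.5 added to each value, because the heart levels are so low. The fructose carrier GLUT5 gene, Slc2a5, differed by 3.52 ± 0.30 (adjusted p = 4.45e-07) and the urate and hexose carrier gene Slc2a9 by 1.41 ± 0.15 (adjusted p = 2.53e-06). The smallest difference among members was that of Slc2a1, a carrier found in most cells, at 0.47 ± 0.11 (adjusted p = 0.00163). Slc2a4 lay 6.34 log2 units lower in the kidney than in the heart (log2 difference -6.34 ± 0.15, adjusted p = 3.58e-12).

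**Figure D1:**
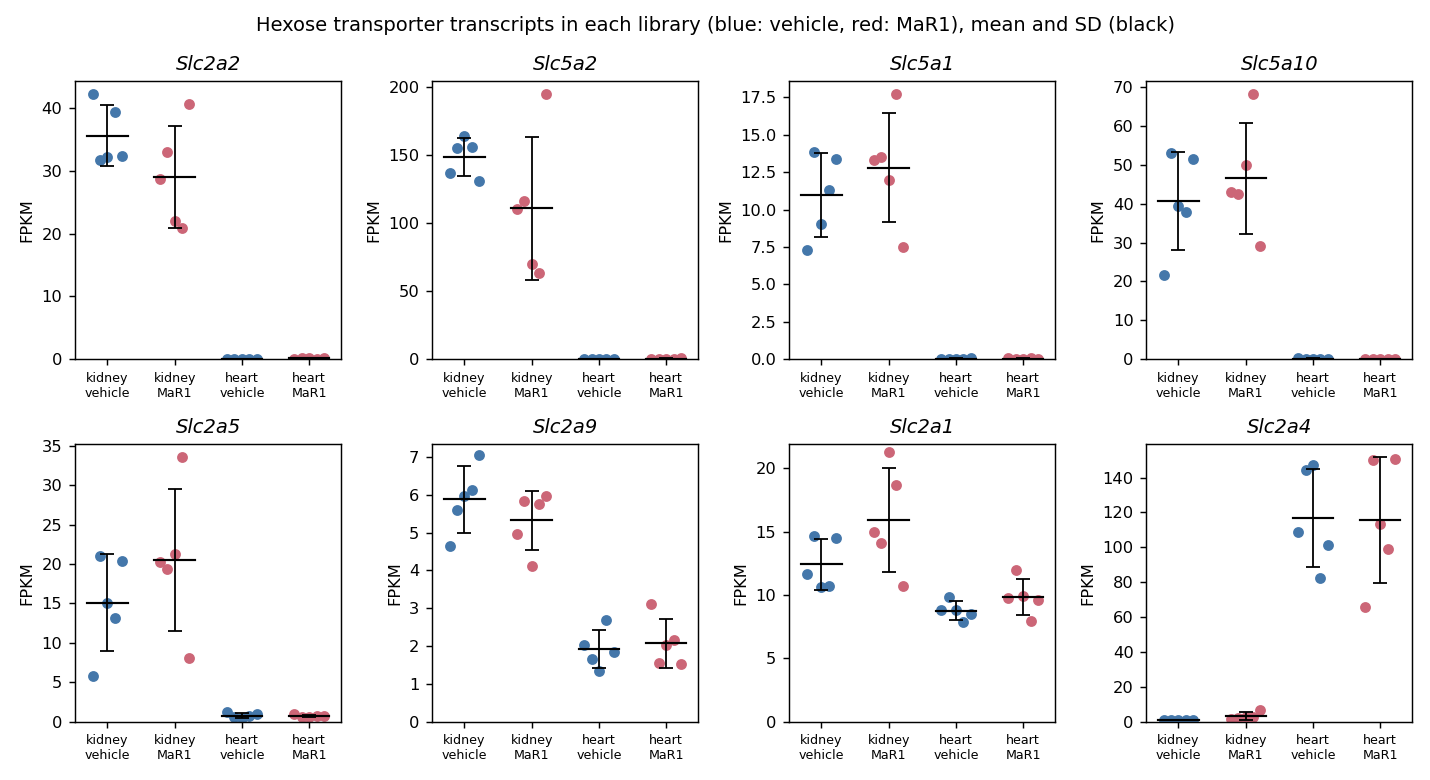
FPKM of each of the 8 transporter transcripts in every library, with 1 panel per gene, each on its own linear axis, and the 4 groups on the horizontal axis. Points are animals, and the black mark and bar are the mean and SD of 5. Slc5a2, Slc5a10, Slc2a2, Slc2a5 and Slc5a1 are kidney transcripts, Slc2a4 is a heart transcript, and Slc2a1 and Slc2a9 appear in both organs.

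SGLT2, the high-capacity glucose carrier of the early proximal tubule, is encoded by Slc5a2 (ENSRNOG00000020039, chromosome 1, 182847106 to 182853306 on the plus strand in the file's coordinates, for which no source used here names a build). Its kidney levels were 137, 155, 164, 156 and 131 FPKM in vehicle animals RB030 to RB034, and 110, 117, 70.3, 63.1 and 195 FPKM in MaR1 animals RB035 to RB039. Of the MaR1 kidneys, 4 lay below all vehicle kidneys and RB039 lay above all of them, so the groups overlapped. The means were 149 ± 13.9 and 111 ± 52.5 FPKM, a log2 difference, MaR1 minus vehicle, of -0.53 ± 0.26 (95% interval -1.11 to 0.04; limma, adjusted p = 0.753). Single libraries decided its size. Without RB037 and RB038 it was -0.12 (adjusted p = 0.999), and without RB039 it was -0.77 (adjusted p = 0.111).

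GLUT2, the carrier through which glucose leaves tubule cells at their blood side, is encoded by Slc2a2 (ENSRNOG00000011875, chromosome 2, 111611774 to 111639933, plus strand). Vehicle kidneys RB030 to RB034 held 42.2, 31.7, 32.3, 39.4 and 32.3 FPKM, and MaR1 kidneys RB035 to RB039 held 28.7, 32.9, 22.04, 20.8 and 40.6 FPKM. Again RB037 and RB038 were the lowest, and RB039 lay among the vehicle animals. The log2 difference was -0.32 ± 0.17 (95% interval -0.71 to 0.06; limma, adjusted p = 0.758), and -0.07 without RB037 and RB038. Slc2a2 moved with Slc5a2 across the 10 kidneys (Pearson r = 0.889, permutation p = 0.00188, adjusted p = 0.0107; Spearman rho = 0.685, p = 0.0349, adjusted p = 0.113), but r was 0.543 without RB037 and RB038, so the relation rests in part on those animals. With group means removed, r was 0.849. These relations, 68 in the kidney and 18 in the heart, were chosen after the values were seen. Their p-values come from 100000 permutations and are adjusted over the relations of the organ.

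The proximal promoters of this pair, from 250 bases before to 50 after the start annotated by RefSeq on GRCr8, are shown because both carriers are kidney transcripts that varied together. The Slc5a2 window is chr1:192277371-192277670 on the plus strand, and that of Slc2a2 is chr2:113540120-113540419 on the plus strand. In Slc5a2 the capitals mark a CCAAT box that begins 176 bases before the start and a match to the binding site of HNF1, a transcription factor of kidney and liver, that begins 62 bases before it.

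Slc5a2: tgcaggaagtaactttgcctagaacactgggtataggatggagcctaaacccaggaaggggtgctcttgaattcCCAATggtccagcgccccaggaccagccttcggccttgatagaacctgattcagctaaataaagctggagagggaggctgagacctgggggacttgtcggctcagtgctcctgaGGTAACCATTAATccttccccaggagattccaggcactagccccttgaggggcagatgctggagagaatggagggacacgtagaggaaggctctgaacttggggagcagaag
Slc2a2: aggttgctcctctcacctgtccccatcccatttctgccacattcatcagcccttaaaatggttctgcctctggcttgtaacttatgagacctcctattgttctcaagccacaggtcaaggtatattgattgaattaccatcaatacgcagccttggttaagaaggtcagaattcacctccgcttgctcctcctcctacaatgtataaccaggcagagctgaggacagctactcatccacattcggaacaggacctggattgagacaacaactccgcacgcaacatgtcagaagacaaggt

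The HNF1 site searched, on both strands, was GTTAAT and ATTAAC with 1 base of any kind between them, and up to 3 of its 12 fixed letters could differ. This looser search was chosen after the sequences were seen. It matched 2 of the 7 member promoters that RefSeq's table holds (Slc5a2 and Slc5a10), and 8.7% of all 33469 promoters in that table; the nearest window in Slc2a2 differed by 4 letters. The exact half-site GTTAAT was in 0 of the 7, and in 7.5% of all promoters. CCAAT, searched on both strands, was in Slc5a2, Slc2a5 and Slc2a1 and in 37.5% of all promoters. The windows of Slc2a1 and Slc5a1 were the richest in G and C among the 7, at 68.3% and 64.7%, where the others had 47.7 to 57% and the median over all promoters was 51.7%. Slc2a1 also held 3 GC boxes, searched as GGGCGG on both strands and present in 33.1% of all promoters. No promoter was read for Slc2a4. A match is a run of letters and not a bound site.

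The transcripts of fructose and mannose transport formed a second group in the kidney. GLUT5, which carries fructose, is encoded by Slc2a5 (ENSRNOG00000017693, chromosome 5, 160583234 to 160611106, plus strand), and SGLT5, a sodium-coupled carrier of mannose and fructose in the kidney, by Slc5a10 (ENSRNOG00000002616, chromosome 10, 46352061 to 46399811, minus strand). The promoter windows of both are shown because these 2 transcripts had the highest correlation among the members. The Slc2a5 window is chr5:165865929-165866228 on the plus strand, with a CCAAT box read on the reverse strand in capitals, 72 bases before the start. The Slc5a10 window is chr10:46898411-46898710 on the minus strand, with the match to the HNF1 site in capitals, 54 bases before the start.

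Slc2a5: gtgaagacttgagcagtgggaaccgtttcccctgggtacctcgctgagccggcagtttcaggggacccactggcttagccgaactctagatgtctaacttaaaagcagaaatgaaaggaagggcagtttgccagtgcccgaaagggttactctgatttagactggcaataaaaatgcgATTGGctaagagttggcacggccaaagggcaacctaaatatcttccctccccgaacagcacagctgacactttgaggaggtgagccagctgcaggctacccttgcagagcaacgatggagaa
Slc5a10: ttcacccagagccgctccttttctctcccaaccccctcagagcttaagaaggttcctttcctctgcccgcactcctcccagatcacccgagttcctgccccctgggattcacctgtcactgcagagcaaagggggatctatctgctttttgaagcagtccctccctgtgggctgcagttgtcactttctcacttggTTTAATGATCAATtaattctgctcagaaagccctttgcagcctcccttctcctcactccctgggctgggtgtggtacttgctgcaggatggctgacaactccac

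Slc2a5 measured 5.86, 21.0, 15.1, 13.1 and 20.4 FPKM in vehicle kidneys RB030 to RB034, and 20.3, 19.4, 21.3, 33.6 and 8.13 FPKM in MaR1 kidneys RB035 to RB039. Slc5a10 measured 21.8, 53.1, 39.6, 37.9 and 51.5 FPKM in the vehicle kidneys and 43.0, 42.6, 50.1, 68.3 and 29.1 FPKM in the MaR1 kidneys. In both genes RB030 and RB039 were the lowest of the 10 kidneys and RB038 the highest, so each treatment group held a low kidney and the groups overlapped. The log2 difference between treatments was 0.42 ± 0.39 for Slc2a5 (95% interval -0.44 to 1.29; limma, adjusted p = 0.872) and 0.20 ± 0.26 for Slc5a10 (95% interval -0.38 to 0.78; adjusted p = 0.919). Without RB030 the value for Slc2a5 was 0.13, and without RB038 it was 0.22. The sign for Slc5a10 turned without RB030 (-0.0035) and without RB037 and RB038 (-0.05), and without RB038 alone its value was 0.05.

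SGLT1, the high-affinity carrier that recovers the glucose left late in the proximal tubule, is encoded by Slc5a1 (ENSRNOG00000017775, chromosome 14, 77553843 to 77618547, minus strand). Its levels were 7.30, 13.8, 9.004, 11.3 and 13.4 FPKM in vehicle kidneys RB030 to RB034 and 13.3, 13.5, 11.98, 17.7 and 7.50 FPKM in MaR1 kidneys RB035 to RB039. RB030 and RB039 were again the lowest and RB038 the highest. The log2 difference was 0.20 ± 0.22 (95% interval -0.29 to 0.70; limma, adjusted p = 0.899), with 0.07 without RB030 and 0.08 without RB038.

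Slc2a5, Slc5a10 and Slc5a1 varied together from kidney to kidney. Slc2a5 and Slc5a10 had r = 0.980 (permutation p = 1e-05, the smallest that 100000 permutations can give; adjusted p = 0.00034; rho = 0.964, adjusted p = 0.0034). For Slc2a5 and Slc5a1 r was 0.943 (permutation p = 0.00019, adjusted p = 0.00215; rho = 0.830, adjusted p = 0.0344), and for Slc5a1 and Slc5a10 it was 0.918 (permutation p = 0.0001, adjusted p = 0.0017; rho = 0.903, adjusted p = 0.0104). Without RB030 and RB039, the 2 farthest from the median, these r values were 0.934, 0.857 and 0.804, and with group means removed 0.982, 0.938 and 0.913. Of the 28 pairs of members in the kidney, 9 had an adjusted p under 0.05 for r.

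The same 3 transcripts followed the markers of the last proximal segment, of which 9 of 10 listed genes were matched, among them Slc7a13, an amino acid transporter gene of that segment. The summed level of these markers was 748 to 2677 FPKM in vehicle kidneys and 1051 to 3726 FPKM in MaR1 kidneys, lowest in RB030 and RB039 and highest in RB038, and none of the 9 was at 0 in all kidneys of a group. The mean log2 level of the list had r = 0.979 with Slc2a5 (permutation p = 0.00017, adjusted p = 0.00215; rho = 0.782, adjusted p = 0.0535), 0.956 with Slc5a1 (p = 1e-05, adjusted p = 0.00034; rho = 0.915, adjusted p = 0.0104) and 0.947 with Slc5a10 (p = 4e-05, adjusted p = 0.000907; rho = 0.842, adjusted p = 0.0314). Without RB030 and RB039, r was 0.912, 0.905 and 0.807. Not every marker shared the pattern: Slc7a13 ran from 79.8 FPKM in RB030 to 1534 FPKM in RB038, while Acsm3 was 148 FPKM in RB030 and 95.6 FPKM in RB038.

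Slc5a2 followed markers of the early segments, whose summed level was 3740 to 6058 FPKM with vehicle and 3461 to 5702 FPKM with MaR1. All 13 had a lower mean with MaR1, none was called by limma, and the median log2 difference of the list was -0.41. Podocyte markers, of the glomerulus in the same cortex, were also lower with MaR1 in 7 of 7 genes tested (median -0.41, 0 called, 5 at an unadjusted p under 0.05), with summed levels of 99.97 to 143 FPKM with vehicle and 68.2 to 107 FPKM with MaR1. The mean log2 level of the 13 early-segment markers had r = 0.949 with Slc5a2 (permutation p = 0.00027, adjusted p = 0.00262) and rho = 0.818 (permutation, adjusted p = 0.0352). Without RB037 and RB038, this r was 0.807. With Slc2a2 r was 0.822 (permutation p = 0.0055, adjusted p = 0.0228; rho = 0.552, adjusted p = 0.219), and 0.303 without those 2 kidneys, on which that relation rests. Slc2a2 also ran opposite to Slc2a5 (r = -0.846, permutation p = 0.00374, adjusted p = 0.0191; rho = -0.915, adjusted p = 0.0104) and to Slc5a10 (r = -0.819, permutation p = 0.00422, adjusted p = 0.0191; rho = -0.842, adjusted p = 0.0314), and without RB037 and RB038 these r values were -0.898 and -0.814. With the last-segment markers its r was -0.779 (permutation p = 0.00935, adjusted p = 0.0335; rho = -0.636, adjusted p = 0.157), and -0.652 without RB030 and RB039. The part of any of these marker lists in the members' differences between treatments was not tested beyond the ratios given next.

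**Figure D2:**
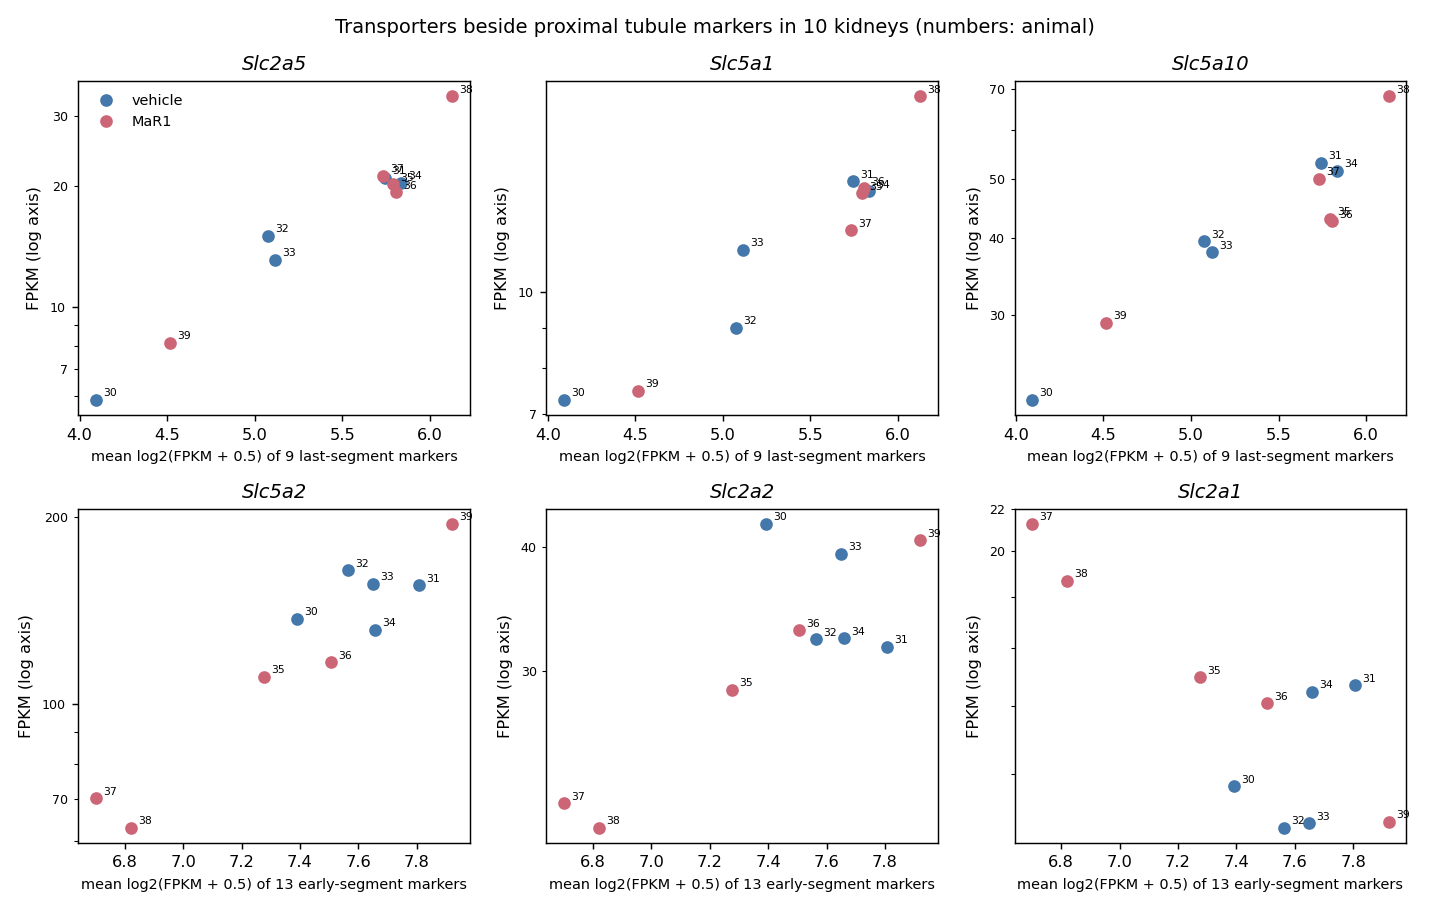
FPKM (log axis) of 6 transporter transcripts in each of the 10 kidneys, plotted against the mean log2(FPKM + 0.5) of the 9 markers of the last proximal segment (upper row) or the 13 markers of the early segments (lower row); each point is an animal, numbered by the last 2 digits of its name. Slc2a5, Slc5a1 and Slc5a10 rise with the last-segment markers from RB030 to RB038, Slc5a2 rises with the early-segment markers, Slc2a2 is lowest in RB037 and RB038, and Slc2a1 is highest in RB037 and RB038.

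Ratios within a library set the members against each other and against the tubule markers. The Slc5a2 to Slc5a1 ratio was 9.80 to 18.8 (median 13.8) in vehicle kidneys and 8.27, 8.61, 5.87, 3.56 and 26.0 in MaR1 kidneys RB035 to RB039. The log2 difference was -0.75 (exact permutation p = 0.183, adjusted p = 0.274 over 3 ratios); 4 of 5 MaR1 kidneys lay below the vehicle mean, and without RB039 the difference was -1.16 (exact permutation p = 0.0159, adjusted p = 0.0476). The Slc2a2 to Slc2a1 ratio, exit carriers of the early and late tubule, was 2.16 to 3.68 with vehicle and 1.04 to 3.78 with MaR1 (log2 difference -0.66, exact permutation p = 0.151, adjusted p = 0.274). Relative to the geometric mean of the 13 early-segment markers, Slc5a2 differed by -0.16 log2 units (exact permutation p = 0.190, adjusted p = 0.296) and Slc2a2 by 0.04 (exact permutation p = 0.786). The other members, on that scale, differed by 0.71 for Slc2a1, 0.81 for Slc2a5, 0.58 for Slc5a1, 0.58 for Slc5a10 and 0.23 for Slc2a9, with exact permutation adjusted p from 0.296 to 0.317. All 13 of these markers had a lower mean with MaR1, and a lower denominator raises every value on this scale. The smallest p that 5 against 5 animals can give in this exact two-sided test is 0.00794. Without RB039 each remaining MaR1 kidney lay below every vehicle kidney for the Slc5a2 to Slc5a1 ratio. The p of 0.0159 is therefore the smallest that the test can give there. RB039 was the only MaR1 kidney above the vehicle mean, so that p is no separate support.

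Slc2a1, the gene of GLUT1 (ENSRNOG00000007284, chromosome 5, 132717196 to 132745416, plus strand), ran opposite to Slc5a2 and Slc2a2. Vehicle kidneys RB030 to RB034 held 11.7, 14.7, 10.6, 10.7 and 14.5 FPKM, and MaR1 kidneys RB035 to RB039 held 15.0, 14.1, 21.3, 18.7 and 10.7 FPKM. RB037 and RB038, lowest for Slc5a2, were highest here. The log2 difference was 0.32 ± 0.17 (95% interval -0.05 to 0.70; limma, adjusted p = 0.755), and 0.09 without RB037 and RB038. With Slc5a2 r was -0.898 (permutation p = 0.00073, adjusted p = 0.0062; rho = -0.867, adjusted p = 0.027), and -0.849 without RB032 and RB037. With Slc2a2 it was -0.897 (permutation p = 0.00117, adjusted p = 0.00796; rho = -0.758, adjusted p = 0.0648), and -0.954 without the same 2 kidneys. Inner medulla and thin limb markers (9 genes) moved with Slc2a1 (r = 0.882, permutation p = 0.0009, adjusted p = 0.0068; rho = 0.794, adjusted p = 0.0498), and r was 0.649 without RB037 and RB038. All 9 had a higher mean with MaR1, and their summed level was 429 to 772 FPKM with vehicle and 549 to 916 FPKM with MaR1, with 0 of the 9 at 0 in all kidneys of a group. Most of that sum was Aqp1, at means of 522 FPKM with vehicle and 574 FPKM with MaR1, which also averaged 286 FPKM in vehicle hearts. The urea carrier genes Slc14a1 and Slc14a2 averaged 0.242 and 0.0350 FPKM with vehicle and 2.06 and 1.06 FPKM with MaR1. The sum is therefore no measure of inner medulla alone. The 9 markers also had r = -0.852 with Slc5a2 (permutation, adjusted p = 0.0107) and -0.819 with Slc2a2 (adjusted p = 0.0191). Without RB037 and RB038 these were -0.575 and -0.482. Slc2a1 had r = 0.732 with the last-segment markers (permutation, adjusted p = 0.0474), and 0.804 without RB030 and RB039. With the early-segment markers its r was -0.795 (permutation, adjusted p = 0.0228), and -0.272 without RB037 and RB038. None had an adjusted p under 0.05 for rho. The part of these lists in the Slc2a1 difference was not tested beyond the ratios above.

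Slc2a9 (ENSRNOG00000005302, chromosome 14, 72328320 to 72461981, plus strand) encodes GLUT9, which carries urate as well as hexoses. It varied little across the 10 kidneys (SD of 0.195 on the log2 scale, against 0.675 for Slc2a5). Its levels were 4.64, 5.61, 5.98, 6.12 and 7.07 FPKM with vehicle and 4.95, 5.84, 4.11, 5.75 and 5.98 FPKM with MaR1, so the groups overlapped. The log2 difference was -0.13 ± 0.12 (95% interval -0.40 to 0.13; limma, adjusted p = 0.866). None of its 7 pairs with other members in the kidney had an adjusted p under 0.05.

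The muscle and fat carrier gene Slc2a4 (ENSRNOG00000017226, chromosome 10, 54666015 to 54671565, minus strand) was at a low level in the kidney, and it was the member with the widest separation between treatments there. Vehicle kidneys RB030 to RB034 held 0.891, 0.721, 1.03, 0.898 and 1.09 FPKM, and MaR1 kidneys RB035 to RB039 held 1.30, 2.26, 2.97, 2.54 and 7.002 FPKM. The lowest MaR1 kidney lay above the highest vehicle kidney, and it was the only one of the 8 members whose groups did not overlap in the kidney; of all 12446 genes tested, 1.23% did not overlap, and 0.723% did so with MaR1 higher. The means were 0.926 ± 0.143 and 3.21 ± 2.20 FPKM, a log2 difference of 1.22 ± 0.30 (95% interval 0.55 to 1.88). It did not pass the test over all genes (limma, adjusted p = 0.582). Slc2a4 reached the mean of 1 FPKM that the test asks only through the MaR1 kidneys. Without RB039 the difference was 0.92 (limma, adjusted p = 0.0901), and over all alternatives it ran from 0.85 to 1.57, with adjusted p from 0.0901 to 0.999.

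Markers of adipocytes, cells in which GLUT4 is abundant, moved with Slc2a4 in the kidney. All 8 had a higher mean with MaR1. Their summed level was 11.4 to 24.0 FPKM in vehicle kidneys and 28.7, 75.5, 32.3, 34.0 and 625 FPKM in MaR1 kidneys RB035 to RB039, also without overlap. Of the 8 markers taken singly, only Adipoq and Fabp4 did not overlap. Cidec, the largest part of the vehicle sum with a mean of 10.7 FPKM, was 4.26 to 17.1 FPKM with vehicle and 16.9 to 45.0 FPKM with MaR1. Leptin (Lep) was at 0 in all 5 vehicle kidneys and at 0 to 1.70 FPKM in MaR1 kidneys. Adipoq, the adiponectin gene, was 2.77 to 3.79 FPKM with vehicle and 4.26 to 13.2 FPKM in 4 MaR1 kidneys, with 119.9 FPKM in RB039; Ucp1, the brown fat uncoupling protein gene, was 5.93 FPKM in RB036 and 106 FPKM in RB039 and at most 0.442 FPKM in the other kidneys. The mean log2 level of the list had r = 0.845 with Slc2a4 (permutation p = 0.00832, adjusted p = 0.0314; rho = 0.867, adjusted p = 0.027), 0.811 without RB036 and RB039, and 0.819 with group means removed. The r without RB036 and RB039 keeps the gap between the groups, and the r with group means removed keeps RB039. Neither sets both aside. Among the MaR1 kidneys other than RB039, RB036 was highest for these markers, with Slc2a4 at 2.26 FPKM. RB037 was highest of them for Slc2a4, at 2.97 FPKM. A relation within the groups apart from RB039 was not tested. Relative to the early-tubule markers, Slc2a4 was 1.95 log2 units higher with MaR1 (exact permutation p = 0.00794, adjusted p = 0.0635). That value lay above the vehicle mean in 5 of 5. Slc2a4 entered this test only through its MaR1 kidneys, and its groups were already known not to overlap. The early-tubule markers were also lower with MaR1 in 13 of 13 genes, which raises the value, so this p is no separate support. Smooth muscle markers had r = 0.767 with Slc2a4 (permutation p = 0.0134, adjusted p = 0.0455; rho = 0.552, adjusted p = 0.219), which rests on RB038 and RB039 (r = 0.167 without them). The part of fat tissue in the Slc2a4 difference was not tested.

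**Figure D3:**
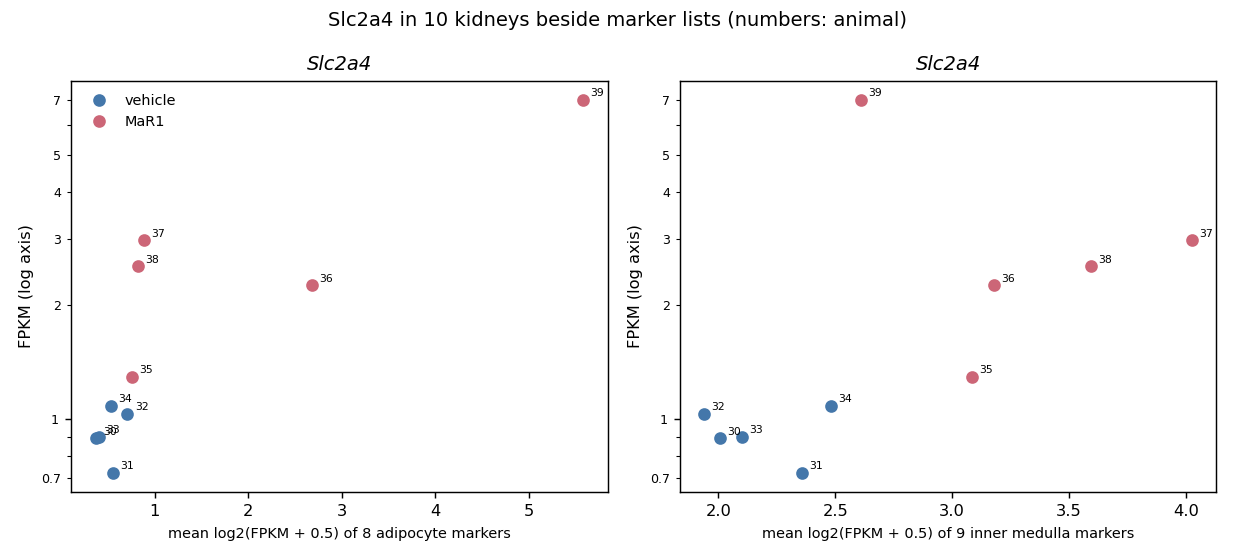
Slc2a4 FPKM (log axis) in each of the 10 kidneys against the mean log2(FPKM + 0.5) of 8 adipocyte markers (left) and of 9 inner medulla and thin limb markers (right), with points numbered by animal. RB039 is far to the right for the adipocyte markers with Slc2a4 at 7.002 FPKM, while RB037 and RB038 hold 2.97 and 2.54 FPKM with adipocyte markers near those of RB035. In the right panel r is 0.541 (permutation, adjusted p = 0.207), and -0.330 with group means removed. Its rho is 0.770 (permutation, adjusted p = 0.0617).

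In the kidney, the MaR1 mean was higher for 5 members and lower for 3, and limma called 0 of 8 where it called 0 of 12446 genes (0%). At an unadjusted p under 0.05 there was 1 of 8 members and 6.75% of all genes tested (840). Without RB039 there were 4 of 8 members and 1757 genes, and without RB038 or RB033 there were 1 of 8 members and 486 or 555 genes. The median log2 difference of the 8 was 0.20, and that of all genes was 0.000217. The intervals above bound what these 5 against 5 animals could show: for Slc5a2, values from -1.11 to 0.04 remained within the 95% interval.

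**Figure D4:**
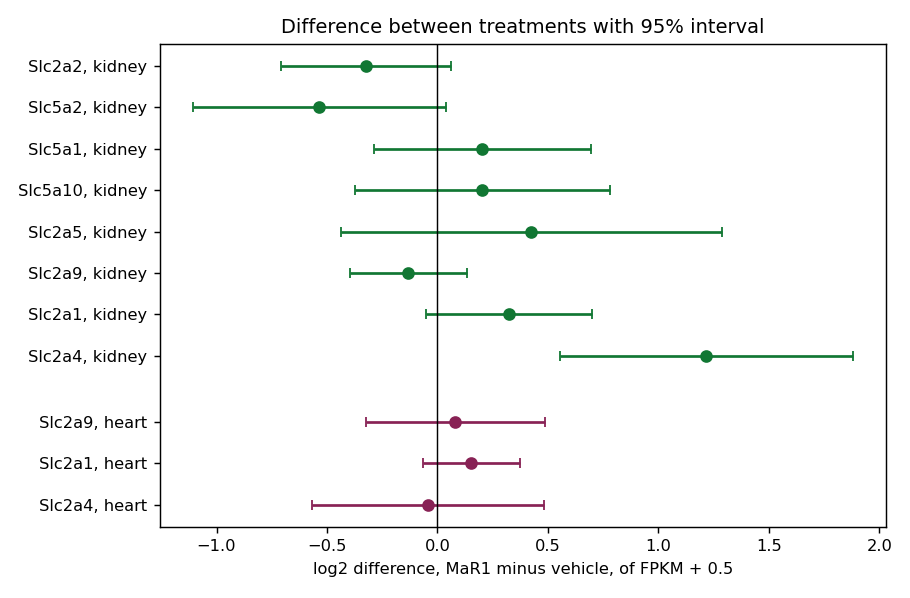
Log2 difference between treatments, MaR1 minus vehicle on the scale of log2(FPKM + 0.5), for the 8 members tested in the kidney and the 3 tested in the heart; points are limma estimates and bars are 95% intervals. The interval of Slc2a4 in the kidney, 0.55 to 1.88, is the one that leaves out 0, before any adjustment for the number of genes tested.

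In the left ventricle Slc2a4 made up most of the transporter transcripts. It measured 109, 144, 147, 82.6 and 101 FPKM in vehicle hearts RB030 to RB034 and 65.7, 150, 114, 98.9 and 151 FPKM in MaR1 hearts RB035 to RB039. RB035 was the lowest, and RB039 and RB036 were the highest, so the MaR1 group spanned the vehicle group. The log2 difference was -0.04 ± 0.24 (95% interval -0.57 to 0.48; limma, adjusted p = 1.00), and its sign turned when RB031, RB032 or RB035 was left out (0.04, 0.05 and 0.15). Slc2a1 measured 8.79, 9.88, 8.80, 7.83 and 8.52 FPKM with vehicle and 9.77, 11.97, 9.96, 7.94 and 9.62 FPKM with MaR1, a log2 difference of 0.15 ± 0.10 (95% interval -0.07 to 0.37; limma, adjusted p = 1.00). All 3 members tested in the heart had groups that overlapped, where 0.842% of genes did not, and limma called 0 of them, as of all 12237 genes tested (0%); 0 of the 3 and 4.6% of all genes had an unadjusted p under 0.05. The Slc2a4 to Slc2a1 ratio had a median of 12.4 with vehicle and 12.5 with MaR1 (range 10.5 to 16.7 and 6.72 to 15.7; log2 difference -0.20, exact permutation p = 0.484).

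Slc2a9 in the heart measured 2.04, 1.67, 1.35, 2.70 and 1.85 FPKM with vehicle and 3.11, 1.55, 2.03, 2.16 and 1.52 FPKM with MaR1, and its log2 difference was 0.08 ± 0.18 (95% interval -0.33 to 0.49; limma, adjusted p = 1.00). It ran opposite to Slc2a4 across the 10 hearts. Their r was -0.961 (permutation p = 8e-05, adjusted p = 0.00144; rho = -0.927, p = 0.00033, adjusted p = 0.00594), -0.925 without RB035 and RB039, and -0.965 with group means removed. Both also moved with other features of the hearts. The summed level of transcripts from the mitochondrial genome, 241871 to 411830 FPKM, had r = 0.839 with Slc2a4 (permutation p = 0.00335, adjusted p = 0.0175; rho = 0.818, adjusted p = 0.0277; r = 0.843 without RB033 and RB038) and -0.836 with Slc2a9 (permutation p = 0.0022, adjusted p = 0.0175; rho = -0.879, adjusted p = 0.0138; r = -0.830 without them). Macrophage markers (7 genes, 130 to 263 FPKM with vehicle and 132 to 291 FPKM with MaR1) had r = -0.821 with Slc2a4 (permutation p = 0.00415, adjusted p = 0.0175; rho = -0.794, adjusted p = 0.0310; r = -0.764 without RB031 and RB039) and 0.812 with Slc2a9 (permutation p = 0.00485, adjusted p = 0.0175; rho = 0.855, adjusted p = 0.0176; r = 0.833 without them). The part of these features in the opposite course of the 2 carriers was not tested. Heart muscle markers (9 genes) had r = 0.434 with Slc2a4 (permutation p = 0.210, adjusted p = 0.315; rho = 0.273, adjusted p = 0.538).

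**Figure D5:**
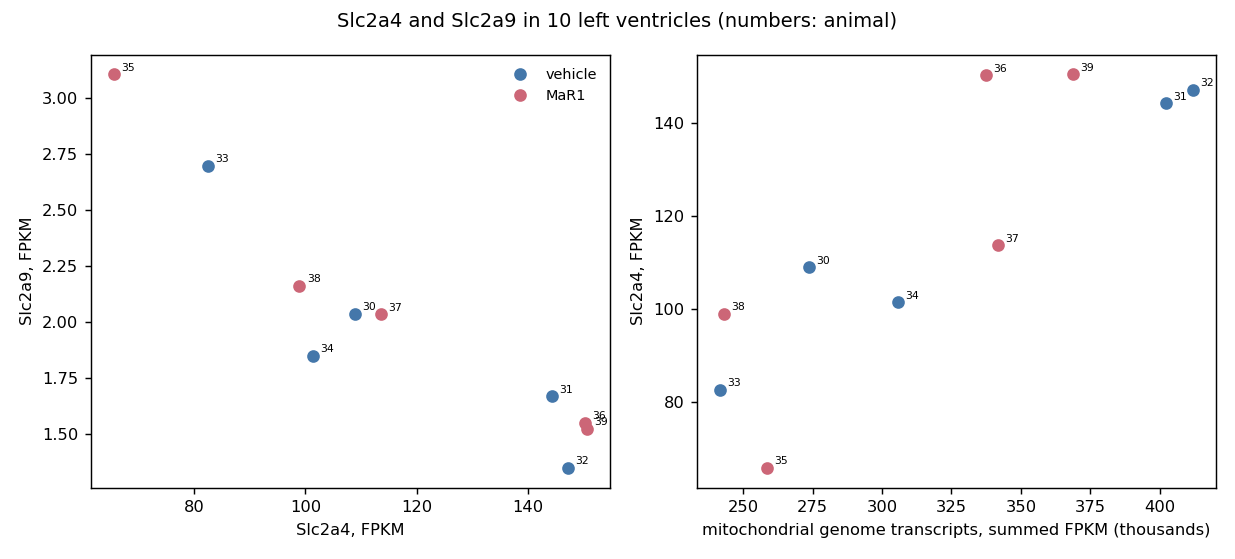
Slc2a9 against Slc2a4 (left) and Slc2a4 against the summed mitochondrial genome transcripts in units of 1000 FPKM (right) in the 10 left ventricles; all axes are linear FPKM and points are numbered by animal. The left panel falls from RB035, with 65.7 and 3.11 FPKM, to RB032, RB036 and RB039, with both treatments along the same course.

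The other 5 members did not reach the mean of 1 FPKM in the heart and were not tested there. Slc2a5 stood at 0.482 to 1.25 FPKM (23 to 66 fragments) and Slc5a2 at 0.128 to 0.947 FPKM (6 to 44 fragments), with RB039 highest for Slc5a2. As a share of the mean level over the 10 kidneys, Slc5a2 in hearts was 0.0983 to 0.730%, Slc2a2 0 to 0.651%, Slc5a1 0 to 0.566% and Slc5a10 0 to 0.578%. Another 39 transcripts, chosen for at least 200 FPKM in the kidney and at most 1% of that in hearts, had a median per heart of 0.0464 to 0.444% of the kidney mean, with means of 0.113% in vehicle and 0.292% in MaR1 hearts. The filter on those transcripts sets their range, and whether the heart levels of these 4 carriers come from heart cells was not tested. Slc2a5, Slc2a9 and Slc2a1 in hearts stood at 2.71 to 6.998%, 24.1 to 55.4% and 55.2 to 84.4% of the mean over the kidneys.

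Whether the response differed between organs was tested as an interaction, heart minus kidney, over all 20 libraries. limma called 0 of 8 members and 0 of 12984 genes (0%); 3 members and 5.5% of genes had an unadjusted p under 0.05. Slc2a4 had the largest difference among members, -1.26 ± 0.40 (limma, adjusted p = 0.686), followed by Slc5a2 at 0.77 ± 0.34 (adjusted p = 0.881) and Slc2a2 at 0.54 ± 0.20 (adjusted p = 0.800). For Slc5a2 and Slc2a2 the heart side of the difference rests on few fragments.

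Other genes of sugar handling were followed in lists. In the kidney, none of them passed the test. Of 10 other hexose and polyol carriers tested, 8 were higher and 2 lower with MaR1 (median log2 difference 0.10, against 50% of all genes higher), with Slc5a3, the gene of a sodium-coupled inositol carrier, at 1.37 ± 0.283 and 2.76 ± 1.28 FPKM (limma, adjusted p = 0.698) and Slc2a8, a carrier gene of inner membranes, at 5.54 ± 0.302 and 4.66 ± 0.599 FPKM (adjusted p = 0.683). Slc2a13, the gene of a proton-coupled inositol carrier, averaged 4.24 and 6.67 FPKM. Of 9 SGLT partners and tubule transcription factors, 4 were higher and 5 lower (median -0.01); Pdzk1ip1, whose product MAP17 is a partner of SGLT2, averaged 309 ± 22.9 and 273 ± 42.3 FPKM, the kinase gene Sgk1 67.9 and 51.9 FPKM, and Hnf4g 9.51 and 11.3 FPKM. Of 22 genes of GLUT4 traffic and insulin signal, 13 were higher and 9 lower (median 0.02). Sort1, which encodes the GLUT4 vesicle sorting receptor sortilin, was 11.8 ± 0.276 with vehicle and 16.6 ± 3.58 FPKM with MaR1 (log2 difference 0.45 ± 0.12; limma, adjusted p = 0.588). Pik3r1, a subunit of the insulin-activated lipid kinase, averaged 14.5 and 10.7 FPKM, and Lnpep, whose product travels in GLUT4 vesicles, 6.95 and 7.88 FPKM.

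Among 6 genes of fructose and sorbitol use, 3 were higher and 3 lower in MaR1 kidneys; Akr1b1, the aldose reductase gene, which is also one of the inner medulla markers, averaged 7.62 ± 1.14 and 13.3 ± 7.39 FPKM (limma, adjusted p = 0.721), Sord 211 and 184 FPKM, and Khk, the fructokinase gene, 5.55 and 7.13 FPKM. Of 8 genes of glucose phosphorylation and release, 4 were higher and 4 lower (median 0.02), and the hexokinase genes Hk2 and Hk1 averaged 1.92 and 2.76 FPKM and 8.76 and 11.8 FPKM (limma, adjusted p = 0.683 and 0.721), with G6pc3 at 16.9 and 18.4 FPKM. Of 7 genes of urate handling, 1 was higher and 6 were lower (median -0.25). Slc17a3, a urate exporter gene, averaged 45.9 ± 4.15 and 38.4 ± 3.45 FPKM (limma, adjusted p = 0.661), Slc22a8, also an early-tubule marker, 184 and 141 FPKM, and Xdh, the xanthine oxidase gene, 50.3 and 40.9 FPKM.

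In the heart none of these lists held a called gene either, where 54.2% of all genes tested were higher with MaR1. Of 9 other carriers tested 6 were higher, of 3 SGLT partners 2, of 22 genes of GLUT4 traffic 8, of 5 of fructose use 4, of 8 of glucose phosphorylation 7 and of 2 of urate handling 2. Sort1 averaged 17.0 ± 2.53 and 14.1 ± 0.999 FPKM (log2 difference -0.25 ± 0.10; limma, adjusted p = 1.00), opposite in sign to the kidney; the difference between organs was -0.70 ± 0.16 and did not pass the test (limma, adjusted p = 0.399). Fbp1, a gene of gluconeogenesis, averaged 0.913 ± 0.475 and 2.05 ± 0.859 FPKM; it is a kidney transcript, and the share of kidney transcripts given above was also higher in MaR1 hearts. The part of that share in the Fbp1 value was not tested. Xdh averaged 40.8 ± 8.53 and 53.5 ± 5.60 FPKM (limma, adjusted p = 1.00). Among the carriers, Slc50a1 averaged 6.12 and 6.68 FPKM, Slc2a12 3.36 and 3.69 FPKM, and Slc45a3 1.36 and 1.51 FPKM.

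For each member, the genes with the most similar course over the 10 libraries of the organ where it is higher were found by the root mean square difference of centred log2 values, among 11154 named protein genes in the kidney and 10989 in the heart. For Slc5a2 these included Adh6 (0.0744) and Slc34a3 (0.0920), a phosphate carrier gene and early-tubule marker, where the median gene differed by 0.502. Slc2a2 was nearest to Itgb6 (0.0671), Xdh (0.0769) and Dnm3 (0.0934). Slc2a5 was nearest to Albfm1 (0.0922), the organic cation carrier gene Slc22a2 (0.118) and Scn8a (0.127), with a median gene at 0.683. Slc5a10 was nearest to Gamt (0.0974), Skint10 (0.109) and Sult2b1 (0.114), and Slc5a1 to Pstpip2 (0.0968), Hdac6 (0.102) and Gcnt1 (0.103). Slc2a1 was nearest to Rhpn2 (0.0870), Ppp1r14c (0.0876) and Fbxo44 (0.0879), and Slc2a9 to Lratd2 (0.0759), Mtmr9 (0.0836) and Zdhhc9 (0.0850). In the heart, Slc2a4 was nearest to Nt5c1a (0.0523), Dhrs4 (0.0580) and Hrc (0.0646), where the median gene differed by 0.407. These are the best matches among the genes compared and carry no test.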

How the data were processed

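Libraries of poly-A RNA came from both organs of 10 rats. Per the submitters' processing notes, the tools were fastp (version not given), HISAT2 2.0.5, StringTie 1.3.3b and featureCounts 1.5.0-p3. No source used here names the genome build or says whether the libraries kept strand, so overlapping genes cannot be separated. The authors deposited FPKM values for 30560 genes. Multiplied by gene length, 100% of 371175 values above 0 were whole numbers of fragments to within 0.01; 1 FPKM was worth 19.7 to 34.9 fragments at a length of 1 kb. Groups follow the labels.

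The scale was log2(FPKM + 0.5), on which changes of low genes look smaller, for genes with a mean of at least 1 FPKM, with limma 3.58.1 in R 4.3.3 (variance trend, two-sided, Benjamini-Hochberg over all genes tested, threshold 0.05). Each organ was fitted alone; the interaction used 20 libraries. Ratios used exact two-sided permutation tests, adjusted over 3 ratios or 8 members. Libraries of 1 animal share its number; after removing group means, kidney and heart of an animal correlated at -0.0170 to 0.139 over 12984 genes (2 above 0.1), and in 2 of 10 animals the own heart was the closest one; the main models carry no block. Alternatives were pseudocounts 0.1 and 1, no filter and a mean of at least 5 FPKM, median-of-ratios and quantile scaling, limma voom on the whole fragments (842 kidney genes at an unadjusted p under 0.05, 0 called), the replicate block, each animal left out and kidneys with urothelial transcripts left out; the fits without RB037 and RB038 and of both organs in 1 model, and the correlations, were added after seeing the data. The fits were tested on simulated data. The members and lists were chosen with earlier results of these data known. Named genes are the members, the 3 of smallest p per pathway list and organ, and the 3 of most similar course. Marker genes (Slc7a13, Acsm3, Adipoq, Fabp4, Cidec, Lep, Ucp1, Aqp1, Slc14a1, Slc14a2) were named after their values were seen. Some genes that the rule names are left out of the text, though fits and list counts include them. Promoters are RefSeq's on GRCr8 (7 of 8 members matched). Figures used matplotlib 3.10.9.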

Additional observations from a re-analysis of the deposited data

Results flagged for a closer look

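The Slc5a2 to Slc5a1 ratio in the kidney of RB039 was 26.0, far from the next MaR1 kidney at 8.61; the gap was 0.775 of the group's range. It was 1 of 38 groups of 5 examined for a sample far from the others, and chance flags about 1 in 20 such groups. The gap was taken on the ratio itself and not on its log2 value, the scale of the ratio test.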

How the results depend on the processing

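Of 474 member values refitted under alternatives, 465 kept their direction and side of the threshold, and 9 changed sign, each for a difference that was not called. For Slc5a10 in the kidney the value was -0.048 without RB037 and RB038 and -0.0035 to 0.36 when 1 animal was left out; for Slc2a4 in the heart the latter range was -0.16 to 0.15, and for Slc2a9 in the heart -0.049 to 0.187. For the Slc5a10 interaction it was -0.40 to 0.10, and limma voom gave 0.53. Genes called in the kidney numbered 0 to 1 with an animal left out (1 without RB035) and 7 with both organs in 1 model; for the interaction they numbered 0 to 3 (3 without RB035 or RB039, 1 without RB036) and 1 at a pseudocount of 0.1. No member was called for treatment or interaction in any of these. With the animal as replicate block, 10078 genes and all 8 members were called between organs in place of 9989 and 8, and 0 genes for the interaction, so the block changed no call of a member.

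Of 33 ratio values, 32 kept their side; the Slc5a2 to Slc5a1 difference was -1.16 to -0.44 with an animal left out. Relative to early-tubule markers, leaving out 1 animal gave 0.46 to 1.01 for Slc2a1, -0.044 to 0.164 for Slc2a2, 1.78 to 2.23 for Slc2a4, 0.49 to 1.28 for Slc2a5 and 0.35 to 0.93 for Slc5a1; without RB039, Slc2a1, Slc2a4, Slc2a5 and Slc5a1 had an exact permutation adjusted p of 0.0317. Against last-segment markers instead, the values were -0.17 for Slc2a1, -0.83 for Slc2a2, -0.065 for Slc2a5, -0.65 for Slc2a9, -0.29 for Slc5a1 and -0.30 for Slc5a10. These were opposite in sign to those against early-segment markers, while Slc5a2 and Slc2a4 kept theirs at -1.04 and 1.08. Every member shifted by the same amount, because only the markers in the denominator changed. Early-segment markers were lower with MaR1 in 13 of 13 genes, and last-segment markers were higher in 6 of 8 tested. The values above, also those without RB039, therefore depend on the list chosen. With RB039 left out, every remaining MaR1 kidney lay above every vehicle kidney for Slc2a1, Slc2a4, Slc2a5 and Slc5a1 against early-segment markers. Their adjusted p of 0.0317 thus comes from the smallest p that the exact permutation test can give there. Why the lists differed was not tested. Low depth limits the 5 members under 1 FPKM in the heart.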
